A study of Mus musculus with 4 samples.

Results

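The collagen genes described here are the 35 members of the family that lie outside the basement membrane collagens, found among 33456 gene entries. They were taken by symbol: of 44 symbols built as Col, a number, the letter a and a number, 9 were left out, which are the type IV chains (Col4a1 to Col4a6), Col10a1, Col15a1 and Col18a1. By structure they fell into 11 fibrillar chains, 9 fibril-associated chains (FACIT, for fibril-associated collagens with interrupted triple helices), 6 beaded-filament chains, 4 transmembrane chains and 5 others. All 35 had at least 1 UMI (unique molecular identifier, a tag that stands for 1 captured transcript) in the cells kept, and 34 had at least 20. The exception was Col6a4, with 6 UMIs in all.

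Hindlimbs of C57BL/6 mouse embryos were profiled by droplet sequencing of single cells (10x Genomics, 3' ends) at embryonic day 11.5, 13.5, 15.5 and 18.5, written E11.5 to E18.5. The labels tie these ages to limb bud formation, cartilage condensation, cavitation of the joints and their later shaping. Each stage was 1 library, in which cells of 6 to 7 pups from 1 litter of 1 female were pooled after collagenase and pronase digestion, frozen, thawed and cleared of dead cells; no treatment or mutation is given for any of them. Matrix-embedded cells are represented only as far as that digestion and freezing released them alive. With 1 library per stage no difference had a replicate check and none was tested.

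Cells kept numbered 2640 (E11.5), 2816 (E13.5), 2598 (E15.5) and 1904 (E18.5), the median cell in each holding 8943, 10276, 9956.5 and 6959.5 UMIs in that order, so E18.5 was the shallowest library. Libraries shared 69 of 10272 deposited barcodes. Levels are in CPM, the UMIs of a gene per 1000000 UMIs, summed over cells with globin genes left out of the total; each UMI marks the 3' end of 1 transcript, so gene length does not enter a level, though 2 genes may be captured unequally. Calls were made by size: a gene counts as higher or lower where its CPM differed by 2-fold or more, its 95% interval did not reach 1 and the pair held 20 UMIs or more. Intervals, given in parentheses, cover counting error only and not variation between embryos or preparations. Cell types are gates on lists of 8 marker genes that hold no collagen: a cell entered the gate whose list had the most markers detected, with at least 3. Hypertrophic and limb mesenchyme gates were filled otherwise. A cell that met the rule for the chondrocyte gate went to the hypertrophic gate if at least 3 markers of the hypertrophic list were detected. The limb mesenchyme gate took cells with at least 3 of its markers in which no other list reached 3. A gate is a range of a per-cell score and not a proven type; 410, 414, 326 and 340 cells in stage order lay at its limit, and the cells that entered none were 8.41% (E11.5), 9.98% (E13.5), 7.12% (E15.5) and 12.4% (E18.5). Col10a1, the collagen of hypertrophic cartilage and no member here, was at 329 CPM in the hypertrophic gate against 6.27 CPM in the chondrocyte gate at E13.5, and at 2322 against 26.5 CPM at E15.5. The name of the hypertrophic gate is short, as its list holds hypertrophic and mineralising markers. Its median cell had 4 markers of that list and 8 of the chondrocyte list at E13.5 and E15.5. Its median depth was 20180.5 against 10744 UMIs in the chondrocyte gate at E13.5, and 15597 against 9650.5 UMIs at E15.5. Pdgfra, a fibroblast marker, was at 149.9 CPM in the fibroblast gate at E18.5 against 23.2 CPM in all cells. It is part of the list that made this gate, so unlike Col10a1 it is no independent check. The joint list is named by its list alone, since at E11.5 its gate was led by Sfrp2, Trps1 and Osr2, while Gdf5, which marks the future joint, was found in 38.6% of its cells. At E11.5 the fibroblast gate is likewise named by its list alone, as Dpt of that list was not detected in that library. Sox9, a cartilage regulator, was at 149 CPM in the fibroblast gate at E11.5 (188 CPM in all cells), against 59.6 CPM at E13.5, 22.0 CPM at E15.5 and 27.0 CPM at E18.5.

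Collagens are trimers of chains wound into a triple helix, hydroxylated and folded in the endoplasmic reticulum and trimmed and crosslinked outside the cell. Fibrillar collagens carry tensile load: types I and III in skin, tendon and bone, and type II in cartilage, each nucleated by small amounts of type V or type XI. FACIT chains such as type IX coat those fibrils, type VI forms beaded filaments around cells, and transmembrane collagens stay on the cell surface. In the limb, mesenchyme that condenses to cartilage switches to type II, IX and XI, while the tissue around it lays down types I, III, V and VI.

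The upstream sequences of 5 members are shown because these genes stand for the patterns described further on: Col9a1 and Col27a1 for cartilage, Col3a1 for fibroblasts, Col17a1 for epithelium and Col7a1 for both fibroblasts and epithelium. Each is the 250 bases before a transcription start in RefSeq's promoter table (build GRCm38.p6), 5′ to 3′ on the gene's own strand. Col9a1 has a pair of starts, for a long transcript at chr1:24177360-24177609 (plus strand) and a short one at chr1:24194953-24195202 (plus strand). The others lie at chr4:63215162-63215411 (Col27a1, plus strand), chr1:45311288-45311537 (Col3a1, plus strand), chr19:47692043-47692292 (Col17a1, minus strand) and chr9:108953336-108953585 (Col7a1, plus strand). In the GENCODE annotation the Col27a1 window lies inside the gene and the Col17a1 window overlaps its end, as the start sites differ between the 2 annotations. Capitals mark matches, on either strand, to the TATA motif TATAAA, the CCAAT box (its letters CCAAT), the GC box GGGCGG, and the SOX-type cores ACAAAG and ACAATG.
Col9a1 long: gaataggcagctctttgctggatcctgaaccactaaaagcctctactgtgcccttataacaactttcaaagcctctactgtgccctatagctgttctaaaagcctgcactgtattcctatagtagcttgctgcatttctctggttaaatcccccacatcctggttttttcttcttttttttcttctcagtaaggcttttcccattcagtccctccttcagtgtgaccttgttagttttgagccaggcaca
Col9a1 short: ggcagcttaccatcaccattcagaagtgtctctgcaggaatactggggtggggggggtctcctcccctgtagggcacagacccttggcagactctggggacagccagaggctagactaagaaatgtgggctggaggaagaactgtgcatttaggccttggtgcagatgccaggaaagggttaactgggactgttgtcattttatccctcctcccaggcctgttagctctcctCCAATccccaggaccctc
Col27a1: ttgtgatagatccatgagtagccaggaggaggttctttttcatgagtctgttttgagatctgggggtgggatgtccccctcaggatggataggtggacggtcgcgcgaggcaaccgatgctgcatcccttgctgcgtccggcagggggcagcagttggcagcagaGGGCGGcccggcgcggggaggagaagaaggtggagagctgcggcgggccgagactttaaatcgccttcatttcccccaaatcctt
Col3a1: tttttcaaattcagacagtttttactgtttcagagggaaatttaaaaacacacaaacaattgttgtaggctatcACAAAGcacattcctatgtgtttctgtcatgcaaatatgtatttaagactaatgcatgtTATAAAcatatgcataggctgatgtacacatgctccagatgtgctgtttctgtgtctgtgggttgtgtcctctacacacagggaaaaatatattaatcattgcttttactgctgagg
Col17a1: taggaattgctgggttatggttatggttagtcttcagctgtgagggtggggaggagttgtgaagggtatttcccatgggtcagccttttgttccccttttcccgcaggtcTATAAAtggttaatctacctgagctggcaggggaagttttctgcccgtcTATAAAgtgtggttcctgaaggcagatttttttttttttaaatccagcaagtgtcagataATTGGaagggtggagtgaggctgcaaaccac
Col7a1: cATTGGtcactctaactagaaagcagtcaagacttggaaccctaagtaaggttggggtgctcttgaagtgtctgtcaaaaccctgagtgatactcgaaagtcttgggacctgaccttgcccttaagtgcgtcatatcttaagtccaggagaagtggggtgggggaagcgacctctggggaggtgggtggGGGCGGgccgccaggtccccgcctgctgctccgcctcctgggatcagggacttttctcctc

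These windows differed in base composition: the G and C content was 35.2% for Col3a1, 43.6% and 56.0% for the long and short starts of Col9a1, 46.0% for Col17a1, 56.4% for Col7a1 and 59.6% for Col27a1. In all, 27 of 35 members matched the table (not Col1a1, Col2a1, Col5a2, Col9a3, Col12a1, Col14a1, Col22a1 and Col26a1), with 29 windows whose median was 59.2%, against 52.4% over all 32851 windows. TATAAA was in 4 of the 29 (Col3a1, Col11a2, Col13a1 and Col17a1) and in 12.4% of all windows. CCAAT was in 9 and 33.8%, and GGGCGG in 18 and 32.7%. ACAAAG was in 3 windows (Col3a1, Col20a1 and Col28a1) against 16.5% of all, and ACAATG in 1 against 10.7%. A match is a string of letters only, and no match in the 6 windows shown overlaps another.

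Together the 35 collagens made up 0.110% of UMIs (E11.5), 1.52% (E13.5), 1.99% (E15.5) and 1.45% (E18.5). The median cell held 8 collagen UMIs (E11.5), 92 (E13.5), 148.5 (E15.5) and 18 (E18.5), so the median cell fell far more between these last stages than the summed level. Of collagen UMIs, fibrillar chains were 52.0% (E11.5), 55.2% (E13.5), 58.1% (E15.5) and 69.3% (E18.5). FACIT chains were 32.2% (E11.5), 43.3% (E13.5), 40.1% (E15.5) and 22.4% (E18.5), beaded chains 1.98% (E11.5), 0.927% (E13.5), 1.28% (E15.5) and 7.13% (E18.5), and transmembrane chains 4.07% (E11.5), 0.157% (E13.5), 0.149% (E15.5) and 0.308% (E18.5). The remaining 5 genes were 9.78% (E11.5), 0.402% (E13.5), 0.343% (E15.5) and 0.794% (E18.5), most of it Col26a1 at E11.5. Fibrillar and FACIT chains thus held most collagen UMIs at every stage, and beaded chains had their highest share at E18.5. By gene, Col2a1 held 12.2% of collagen UMIs at E11.5, behind Col9a1 at 16.7% and Col3a1 at 14.2%, and 34.3%, 35.7% and 22.7% at the later stages.

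**Figure D1:**
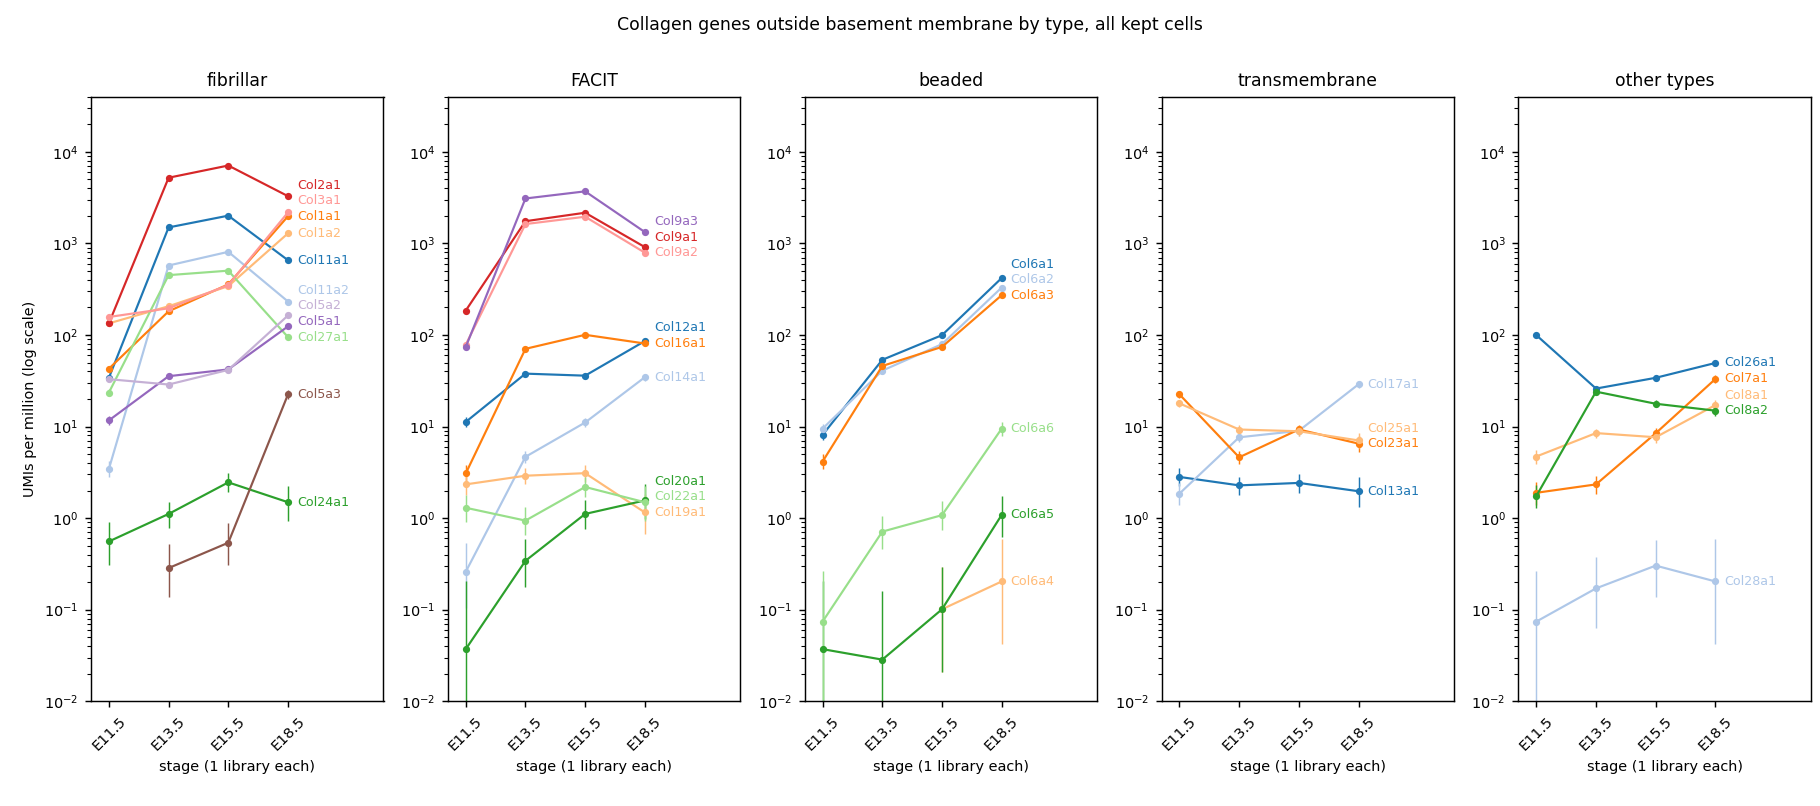
Level of each collagen in CPM (log axis) at the 4 stages over all kept cells, in 1 panel per structural type, with bars for the exact 95% counting interval; libraries with 0 UMIs are not drawn. Col2a1 runs from 134 CPM at E11.5 to a peak of 7091 at E15.5, while Col6a1, Col6a2 and Col6a3 are highest at E18.5.

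The collagens of cartilage were far higher at E13.5 than at E11.5. Of 30 members that could be compared, 18 were higher and 2 lower at E13.5, where 12.8% and 26.1% of all 15172 genes were. Relative to the median gene, which lay at a log2 ratio of -0.55 (0.685-fold), 21 were higher and 2 lower (19.6% and 9.56% of all genes); the median member lay at 2.06. Cells of the 2 cartilage gates, chondrocyte and hypertrophic, were 68.6% of the library at E13.5 against 0.530% at E11.5, and the 8 chondrocyte markers summed to 95.1 CPM at E11.5, 8990.5 CPM at E13.5, 9679.8 CPM at E15.5 and 3162 CPM at E18.5; how far cell numbers account for the ratios was not tested. The members called lower were Col26a1, at 26.0 against 99.6 CPM, and the transmembrane chain Col23a1, at 4.61 against 22.5 CPM.

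Type II collagen, the main fibril of cartilage, is a trimer of the chain encoded by Col2a1 (chr15:97975602-98004695, minus strand; positions of genes are on GRCm38 from GENCODE). Col2a1 was at 134 CPM at E11.5, 5217 CPM at E13.5, 7091 CPM at E15.5 and 3281 CPM at E18.5. It was 38.8-fold (37.6 to 40.1) higher at E13.5 than at E11.5, 1.36-fold higher at E15.5 than at E13.5 (not past 2-fold), and 0.463-fold (0.458 to 0.467) at E18.5 relative to E15.5. That last ratio was 0.511 relative to the median gene, short of the 2-fold limit. Type XI chains, which seed and limit cartilage fibrils, followed the same order of stages: Col11a1 was at 34.1 CPM at E11.5, 1495 CPM at E13.5, 2009 CPM at E15.5 and 655 CPM at E18.5. Col11a2 was at 3.45 CPM at E11.5, 574 CPM at E13.5, 809 CPM at E15.5 and 232 CPM at E18.5, a 167-fold (136 to 206) difference between E13.5 and E11.5 and the widest of any member in that pair. Col27a1, a fibrillar chain of growth cartilage, was at 23.5 CPM at E11.5, 450.2 CPM at E13.5, 504 CPM at E15.5 and 94.8 CPM at E18.5. Its E18.5 level was 0.188-fold (0.178 to 0.199) that of E15.5, the lowest ratio of any fibrillar member in that pair.

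The 3 chains of type IX collagen, which sit on type II fibrils, stood apart from the fibrillar cartilage chains at E11.5. Col9a1 (chr1:24177610-24252684, plus strand) was at 185 CPM at E11.5, 1748 CPM at E13.5, 2163 CPM at E15.5 and 912 CPM at E18.5, and was the highest member in the limb bud. Col9a2 was at 78.4 CPM at E11.5, 1626 CPM at E13.5, 1957 CPM at E15.5 and 793 CPM at E18.5. Col9a3 was at 73.9 CPM at E11.5, 3095 CPM at E13.5, 3703 CPM at E15.5 and 1330.3 CPM at E18.5. Col9a1 was already over Col2a1 at E11.5 and changed least of the 3 between E13.5 and E11.5: 9.46-fold (9.19 to 9.74), beside 20.8-fold (19.9 to 21.7) for Col9a2 and 41.9-fold (40.0 to 43.8) for Col9a3. At E18.5 all 3 were lower than at E15.5, by ratios of 0.422, 0.405 and 0.359.

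Within a library these genes were set against the other kept cells, with both cartilage gates joined. At E13.5, 8 of 30 members were higher in cartilage cells and 13 lower, where 6.88% and 17.6% of all genes were (8 and 10 relative to the median gene at -0.20 on the log2 scale, 9.28% and 14.4% of genes). At E15.5 it was 10 and 13 of 31 (9.76% and 16.8% of genes), and at E18.5 12 and 11 of 31 (12.6% and 17.9%). The same 8 were higher at all 3 stages: Col2a1, Col9a1, Col9a2, Col9a3, Col11a1, Col11a2, Col16a1 and Col27a1. Col2a1 was at 6694 against 412 CPM in cartilage and other cells at E13.5, at 9995 against 319 CPM at E15.5 and at 19256 against 142 CPM at E18.5. Its ratio was 16.3-fold (15.7 to 16.8), 31.4-fold (30.2 to 32.6) and 135-fold (129 to 142) at these stages. Col9a1 had the highest ratio at E18.5, 164-fold (148 to 181). The ratio was larger at each later stage, while the level in cartilage cells was above, and that in other cells below, the level of the stage before. In the chondrocyte gate alone Col2a1 was at 5914 CPM at E13.5, 9746 CPM at E15.5 and 19808 CPM at E18.5, and Col9a1 at 2155 CPM at E13.5, 3127 CPM at E15.5 and 5549 CPM at E18.5. The hypertrophic gate had Col2a1 at 8862 CPM at E13.5 and 10507 CPM at E15.5, above the chondrocyte gate at both stages. Col27a1 took another course: it was at 486 CPM at E13.5, 654 CPM at E15.5 and 430.4 CPM at E18.5 in the chondrocyte gate and at 812 CPM at E13.5 and 807 CPM at E15.5 in the hypertrophic gate, which held fewer than 30 cells at E18.5.

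Droplets also carry free RNA, and UMIs of cartilage collagens were found in every gate. In the endothelial gate, whose cells are not known to make type II collagen, Col2a1 was at 9.53 CPM at E11.5, 238 CPM at E13.5, 233 CPM at E15.5 and 82.3 CPM at E18.5. The epithelial gate had 68.6 CPM at E11.5, 259 CPM at E13.5, 214 CPM at E15.5 and 84.8 CPM at E18.5. Col2a1 UMIs were in 98.4% of chondrocyte-gate cells and 83.8% of endothelial-gate cells at E13.5, the median cell in each holding 10744 and 9428 UMIs, and in 99.6% and 39.6% at E18.5, with 6890 and 6103 UMIs. After each cell was thinned to 3000 UMIs the shares were 93.1% and 42.9% at E13.5, and 98.8% and 14% at E18.5. Col9a1 and Col9a3 stood in nearly the same proportion outside cartilage as in the whole library at E13.5: 0.551 (0.406 to 0.744) Col9a1 UMIs per Col9a3 UMI in the endothelial gate, 0.559 (0.354 to 0.871) in the muscle gate and 0.565 (0.559 to 0.571) in all cells. Not all gates outside cartilage stood at that level: the joint-list gate had Col2a1 at 629 CPM at E13.5 and 793 CPM at E15.5. How far free RNA, doublets or low expression make up the values outside the cartilage gates was not tested. The chondrocyte gate also takes in cells with few markers, so it was split: of its cells at E13.5, E15.5 and E18.5, 1059, 1016 and 210 had 7 or 8 markers and 537, 288 and 53 had 3 to 6. Col2a1 was at 7227 CPM at E13.5, 11231 CPM at E15.5 and 22332 CPM at E18.5 in the cells with 7 or 8 markers, against 1206 CPM at E13.5, 1994 CPM at E15.5 and 9521 CPM at E18.5 in those with 3 to 6. Col1a1 ran the other way, at 69.4 CPM at E13.5, 122 CPM at E15.5 and 395 CPM at E18.5 in the cells with 7 or 8 markers against 471 CPM at E13.5, 628 CPM at E15.5 and 2326 CPM at E18.5 in those with 3 to 6.

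**Figure D2:**
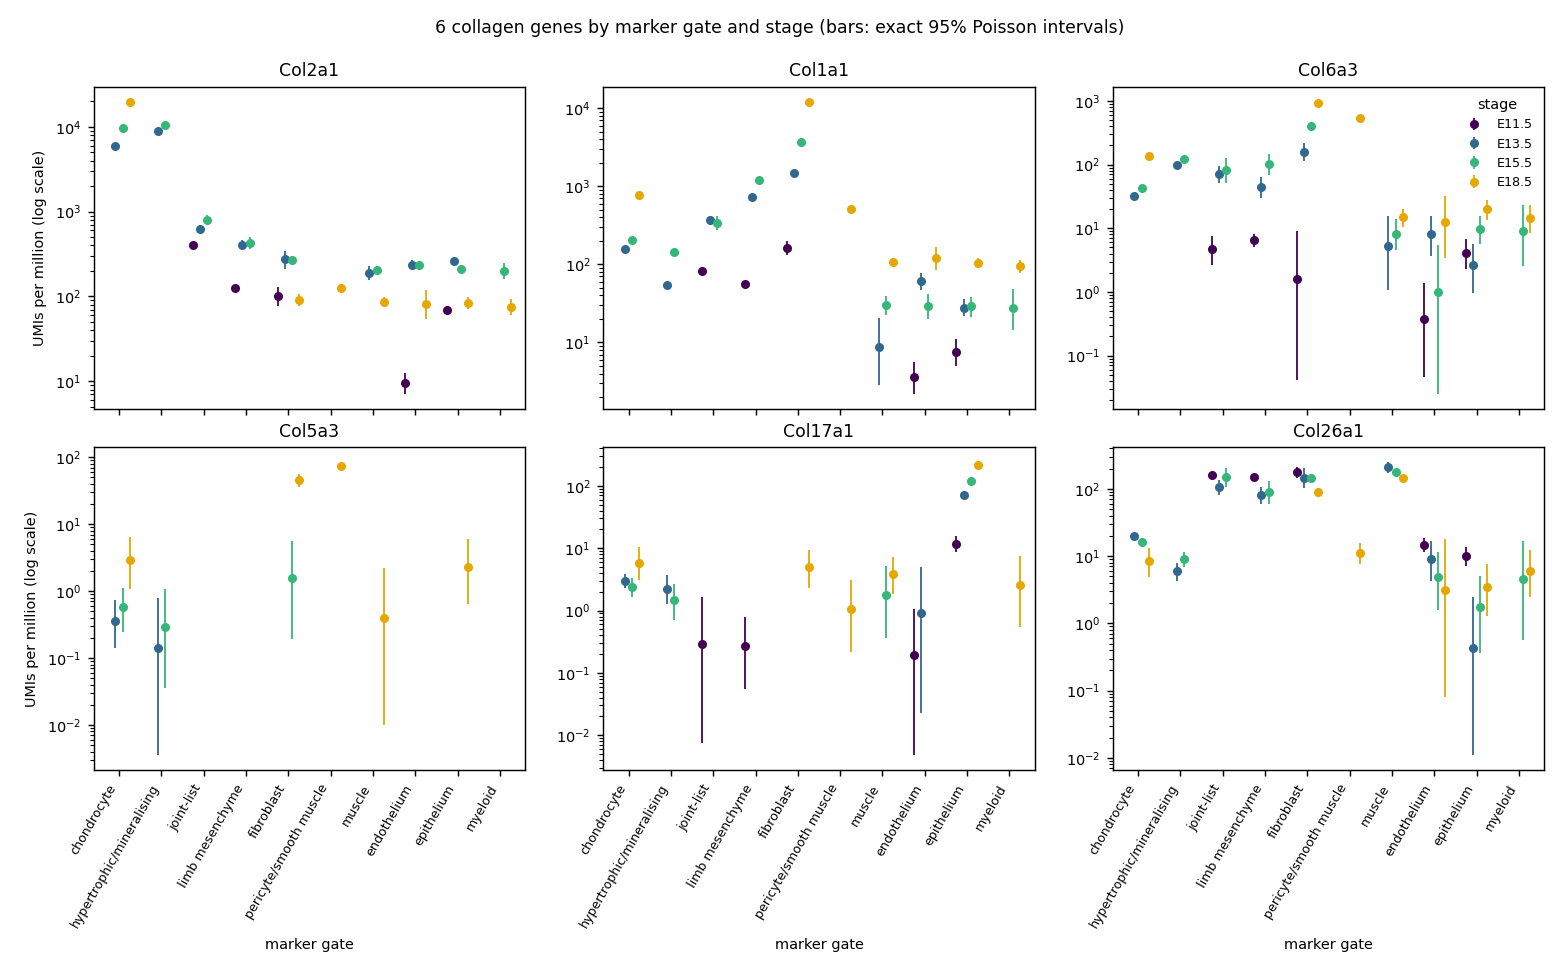
Level in CPM (log axis) of Col2a1, Col1a1, Col6a3, Col5a3, Col17a1 and Col26a1 in each gate with at least 30 cells, by stage, with exact 95% counting intervals; sums of 0 UMIs are not drawn. Col2a1 is highest in the cartilage gates (19808 CPM in the chondrocyte gate at E18.5), Col1a1 in the fibroblast gate (12139.6 CPM at E18.5), and Col17a1 in the epithelial gate (217 CPM at E18.5).

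Types I and III form the fibrils of skin, tendon, fascia and bone. Col1a1 (chr11:94936224-94953042, plus strand), the major chain of type I, was at 42.8 CPM at E11.5, 181 CPM at E13.5, 357 CPM at E15.5 and 1980.2 CPM at E18.5. Col1a2 (chr6:4504814-4541544, plus strand), its partner, was at 134 CPM at E11.5, 206 CPM at E13.5, 342 CPM at E15.5 and 1288 CPM at E18.5. Col3a1 (chr1:45311538-45349706, plus strand), the chain of type III in skin and vessel walls, was at 157 CPM at E11.5, 196 CPM at E13.5, 351 CPM at E15.5 and 2181 CPM at E18.5. All 3 were highest at E18.5, but their starting levels differed: Col1a1 was the lowest and Col3a1 the highest of them at E11.5. Relative to E15.5 the E18.5 level was 6.21-fold (6.08 to 6.35) for Col3a1, 5.55-fold (5.43 to 5.67) for Col1a1 and 3.77-fold (3.68 to 3.86) for Col1a2. Between E13.5 and E11.5 only Col1a1 of the 3 passed 2-fold, at 4.23-fold (3.98 to 4.51); Col1a2 was at 1.54-fold, which counts as higher relative to the median gene, and Col3a1 at 1.24-fold.

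The gate with the largest share of Col1a1 UMIs differed between stages. At E11.5 the limb mesenchyme gate held 54.8% of Col1a1 UMIs and the joint-list gate 24.2%. At E13.5 the chondrocyte gate, 56.7% of cells, held 48.7%, at E15.5 the fibroblast gate 44.2% and at E18.5 75.4%. Of the other chains the fibroblast gate held smaller parts at E15.5, 2584 of 10152 Col1a2 UMIs and 3856 of 10432 Col3a1 UMIs. Fibroblast-gate cells numbered 56 (E11.5), 30 (E13.5), 165 (E15.5) and 272 (E18.5), and as a share of cells they were 2.12% (E11.5), 1.07% (E13.5), 6.35% (E15.5) and 14.3% (E18.5). In that gate Col1a1 was at 162 CPM at E11.5, 1481 CPM at E13.5, 3691 CPM at E15.5 and 12139.6 CPM at E18.5, Col1a2 at 354 CPM at E11.5, 1068 CPM at E13.5, 2034 CPM at E15.5 and 6923 CPM at E18.5 and Col3a1 at 644 CPM at E11.5, 1287 CPM at E13.5, 3036 CPM at E15.5 and 12552 CPM at E18.5. The level of each chain in this gate was above that of the stage before, and by 2-fold or more except for Col1a2 at E15.5 over E13.5 (1.90-fold) and, just short of it, Col3a1 at E13.5 over E11.5. At E18.5 Col1a1 was at 12139.6 against 556 CPM in the fibroblast gate and other cells, a ratio of 21.8-fold (21.3 to 22.4), and Col3a1 at 12552 against 727 CPM, a ratio of 17.3-fold (16.9 to 17.7). As a share of the UMIs in this gate, all collagens together were 0.189% (E11.5), 0.646% (E13.5), 1.27% (E15.5) and 3.78% (E18.5), beside 1.76% (E13.5), 2.69% (E15.5) and 4.79% (E18.5) in the chondrocyte gate. In the endothelial gate Col1a1 was at 3.62 CPM at E11.5, 61.3 CPM at E13.5, 29.4 CPM at E15.5 and 120.3 CPM at E18.5; endothelial cells are not known as a main source of it.

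Against the other cells of its library the fibroblast gate had 8 members higher and 3 lower of 27 at E11.5 (2.33% and 5.71% of all genes). The counts were 14 and 7 of 30 at E13.5 (6.76% and 3.28%), 15 and 8 of 31 at E15.5 (8.43% and 9.69%), and 17 and 7 of 31 at E18.5 (7.45% and 12.9%). The 3 lists from E13.5 on shared 12 members: Col1a1, Col1a2, Col3a1, Col5a1, Col5a2, Col6a1, Col6a2, Col6a3, Col7a1, Col14a1, Col23a1 and Col26a1. Fewer members set limb mesenchyme cells apart from the rest of their library at E11.5: 4 were higher and 3 lower of 27 (2.92% and 13.7% of genes), among them Col26a1 at 149 against 64.4 CPM. By E13.5 the 100 cells left in that gate had 12 higher and 9 lower (8.83% and 5.06%), with Col1a1 at 736 against 171 CPM. Within the gate 17 of 24 members were higher at E13.5 than at E11.5 and 0 lower (9.04% and 13.2% of genes; 18 and 0 relative to the median gene at -0.38, 13% and 5.07% of genes), led by Col8a2 at 43.7-fold (26.2 to 75.2), Col8a1 at 14.9-fold (7.31 to 29.8) and Col1a1 at 13.1-fold (11.6 to 14.8).

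Type V chains join type I fibrils and set where they start. Col5a1 was at 11.7 CPM at E11.5, 35.5 CPM at E13.5, 42.1 CPM at E15.5 and 124 CPM at E18.5, and Col5a2 at 32.9 CPM at E11.5, 28.8 CPM at E13.5, 41.6 CPM at E15.5 and 163 CPM at E18.5. Col5a2 differed little until E15.5 and was 3.93-fold (3.67 to 4.21) at E18.5 relative to E15.5; Col5a1 was 2.95-fold (2.75 to 3.17) in the same pair. Col5a2 was also found in the endothelial gate, at 37.5 CPM at E11.5, 41.5 CPM at E13.5, 37.3 CPM at E15.5 and 259.5 CPM at E18.5, where Col5a1 was at 3.81 CPM at E11.5, 8.12 CPM at E13.5, 8.83 CPM at E15.5 and 28.5 CPM at E18.5. The endothelial level of Col5a2 at E18.5 was 6.96-fold (4.68 to 10.5) that of E15.5, in 48 against 102 cells. Epithelial-gate cells, for comparison, had 22.7 CPM and myeloid-gate cells 6.06 CPM of Col5a2 at E18.5.

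Col5a3 (chr9:20770050-20815067, minus strand), the remaining type V chain, was nearly limited to the last stage. It had 0 UMIs (E11.5), 10 (E13.5), 16 (E15.5) and 331 (E18.5), so 331 of its 357 UMIs came from the last library. In CPM that was 22.4 at E18.5 against 0.538 at E15.5, a ratio of 41.7-fold (25.3 to 73.8), and at least 202-fold higher at E18.5 than at E11.5, where a floor of 3 UMIs stands for the count of 0. At E18.5 the pericyte and smooth muscle gate held 63.7% of its UMIs and the fibroblast gate 25.1%. The level was 73.9 against 10.1 CPM in the pericyte and smooth muscle gate and other cells, 7.34-fold (5.84 to 9.26), with a UMI in 35.2% of that gate's cells and in 0 of 48 endothelial-gate cells, which by the floor of 3 counts allows a share of cells with a UMI of up to 6.25%. Median depths there were 7780 and 6103 UMIs, and the pericyte and smooth muscle share was 16.4% after thinning to 3000 UMIs. In that gate 4 of 31 members were higher than in other cells and 18 lower (9.19% and 15.1% of genes), the higher ones being Col5a3, Col8a1, Col22a1 and Col6a3. Pericyte and smooth muscle cells themselves were 341 (E18.5) and 12 (E15.5), and the 8 genes of their list summed to 43.0 CPM at E11.5, 110.0 CPM at E13.5, 156 CPM at E15.5 and 1241 CPM at E18.5, with Higd1b at 0 at E13.5; the part of cell numbers in the change over all cells was not tested. Within the fibroblast gate Col5a3 also differed, with 83 against 2 UMIs at E18.5 and E15.5, 29.0-fold (7.79 to 244). Col24a1, a fibrillar chain described in developing bone of mice, stayed low. It was at 0.556 CPM at E11.5, 1.11 CPM at E13.5, 2.46 CPM at E15.5 and 1.49 CPM at E18.5. Among gates with at least 30 cells its level was highest in the fibroblast gate at E15.5, on 14 UMIs. At E13.5 the limb mesenchyme gate had 9.31 CPM of Col24a1, on 6 UMIs. The fibroblast gate at E13.5 had 7.94 CPM, but on 2 UMIs, fewer than the floor of 3 counts.

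The FACIT chains other than type IX each had a pattern of their own. Col12a1, which binds type I fibrils in tendon and fascia, was at 11.2 CPM at E11.5, 37.8 CPM at E13.5, 35.9 CPM at E15.5 and 85.8 CPM at E18.5. At E18.5 its UMIs were spread over the chondrocyte gate (28.8%), the fibroblast gate (27.0%) and the pericyte and smooth muscle gate (23.1%). Col14a1, a related chain of dermis and tendon, was at 0.259 CPM at E11.5, 4.67 CPM at E13.5, 11.1 CPM at E15.5 and 34.6 CPM at E18.5, a ratio of 133-fold (64.2 to 333) between E18.5 and E11.5, with 7 UMIs at E11.5. The fibroblast gate had 1.62 CPM at E11.5, 59.6 CPM at E13.5, 75.6 CPM at E15.5 and 141 CPM at E18.5. Col16a1, a FACIT chain of skin and cartilage, was at 3.07 CPM at E11.5, 70.5 CPM at E13.5, 100.4 CPM at E15.5 and 80.7 CPM at E18.5. Col16a1 was called higher both in cartilage cells and, at E18.5, in the fibroblast gate: the chondrocyte gate had 87.8 CPM at E13.5, 151 CPM at E15.5 and 296 CPM at E18.5 and the fibroblast gate 3.25 CPM at E11.5, 43.7 CPM at E13.5, 63.8 CPM at E15.5 and 159.8 CPM at E18.5. It kept near its E15.5 level over all cells at E18.5 (0.804-fold) when the other 7 cartilage-enriched members were at or under 0.463-fold.

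The rest of the FACIT group was scarce. Col19a1, a chain of muscle and of some basement membrane zones, had 63 UMIs (E11.5), 102 (E13.5), 92 (E15.5) and 17 (E18.5); at E11.5 84.1% lay in the epithelial gate, at 14.3 against 0.429 CPM in that gate and other cells, and at E18.5 64.7% lay in the muscle gate. Col22a1, known from the junction of muscle and tendon, had 35 UMIs (E11.5), 33 (E13.5), 65 (E15.5) and 22 (E18.5). In the chondrocyte gate Col22a1 was 3.62-fold (1.99 to 6.90) higher at E15.5 than at E13.5, at 2.93 against 0.809 CPM. Col20a1 had 1 UMI (E11.5), 12 (E13.5), 33 (E15.5) and 23 (E18.5), of which 18 (E15.5) and 13 (E18.5) lay in the neural crest gate, a gate of 17 and 24 cells. At E15.5 4 cells held at least 50% of those 33 UMIs, so Col20a1 values rest on very few cells.

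Type VI collagen forms beaded filaments from the chains of Col6a1, Col6a2 and usually Col6a3. Col6a1 was at 8.11 CPM at E11.5, 53.5 CPM at E13.5, 99.5 CPM at E15.5 and 419 CPM at E18.5, Col6a2 at 9.48 CPM at E11.5, 40.8 CPM at E13.5, 79.4 CPM at E15.5 and 329.7 CPM at E18.5 and Col6a3 (chr1:90765923-90843971, minus strand) at 4.15 CPM at E11.5, 45.9 CPM at E13.5, 74.1 CPM at E15.5 and 272 CPM at E18.5. Each level was above that of the stage before, though none of the 3 passed 2-fold at E15.5 over E13.5, and at E18.5 they were 4.21-fold (4.03 to 4.40), 4.15-fold (3.95 to 4.36) and 3.67-fold (3.48 to 3.87) relative to E15.5. Col6a1 and Col6a2 are neighbours on chromosome 10, and Col6a3 lies on chromosome 1. The fibroblast gate had the highest Col6a1 at E18.5, 1541 CPM, beside 462 in the pericyte and smooth muscle gate, 376 in the chondrocyte gate and 162 in the muscle gate. Col6a3 had the same order of gates but other distances between them. Its level was 943 CPM in the fibroblast gate and 539 CPM in the pericyte and smooth muscle gate. The chondrocyte gate had 138 CPM of it and the muscle gate 14.9 CPM. Hypertrophic-gate cells carried Col6a3 at 97.9 against 32.7 CPM in that gate and other cells at E13.5, 3.0-fold (2.71 to 3.31), and at 122 against 59.8 CPM at E15.5, 2.04-fold (1.87 to 2.23). Col6a1 in the same gate was at 44.3 and 50.4 CPM, below other cells at E15.5 (0.442-fold). That gate held 43.2% of all Col6a3 UMIs (E13.5) and 37.7% (E15.5). In the hypertrophic gate 5 of 30 members were higher and 12 lower than in other cells at E13.5 (2.85% and 17.6% of genes), and 1 and 9 of 31 at E15.5 (3.45% and 13% of genes). Relative to the median gene, at -0.25 and -0.13 on the log2 scale, the counts were 5 and 11 at E13.5 (4.88% and 13.5% of genes) and 3 and 9 at E15.5 (4.49% and 11.4% of genes).

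The remaining beaded chains form a cluster on chromosome 9 and were rare. Col6a6 had 2 UMIs (E11.5), 25 (E13.5), 32 (E15.5) and 140 (E18.5), a ratio of 8.81-fold (5.97 to 13.4) at E18.5 over E15.5 and of 128-fold (34.8 to 1068) at E18.5 over E11.5. At E18.5 32.9% of its UMIs lay in the muscle gate and 25% in the fibroblast gate. Col6a5 had 1 UMI (E11.5), 1 (E13.5), 3 (E15.5) and 16 (E18.5), 10 of the 16 in the pericyte and smooth muscle gate. Col6a4 had 0 UMIs (E11.5), 0 (E13.5), 3 (E15.5) and 3 (E18.5), and all 3 at E18.5 were in that same gate. These 3 genes resemble one another and lie side by side, and how reads shared among close copies entered their counts was not examined.

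Transmembrane collagens remain anchored in the cell surface. Col17a1 (chr19:47646344-47692094, minus strand), part of the hemidesmosome that ties epidermal cells to their base, was at 1.85 CPM at E11.5, 7.63 CPM at E13.5, 8.98 CPM at E15.5 and 28.9 CPM at E18.5. Most of its UMIs lay in the epithelial gate: 88.0% (E11.5), 60.8% (E13.5), 76.4% (E15.5) and 87.6% (E18.5). In that gate the level was 11.9 CPM at E11.5, 71.3 CPM at E13.5, 118 CPM at E15.5 and 217 CPM at E18.5, each above the stage before, by 2-fold or more between E13.5 and E11.5 alone of the adjacent stages. At E18.5 it was 217 against 4.07 CPM in the epithelial gate and other cells, 53.4-fold (40.0 to 72.7), and at E11.5 11.9 against 0.258 CPM, 46.1-fold (19.6 to 132). A Col17a1 UMI was in 64.2% of epithelial-gate and 2.94% of fibroblast-gate cells at E18.5, the median cell in each holding 7139 and 6152 UMIs, or 42.0% and 0.794% after thinning. Between E13.5 and E11.5 the epithelial level was 6.01-fold (4.28 to 8.58). Epithelial-gate cells numbered 358 (E11.5), 197 (E13.5), 154 (E15.5) and 232 (E18.5). In them 3 members were higher than in other cells and 19 lower at E11.5 (9.18% and 13.7% of genes), and 2 and 23 at E18.5 (8.74% and 19.5%), the 2 being Col17a1 and Col7a1.

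The other 3 transmembrane members lay mainly outside the epithelial gate. Col23a1 was at 22.5 CPM at E11.5, 4.61 CPM at E13.5, 9.29 CPM at E15.5 and 6.50 CPM at E18.5 over all cells, highest in the limb bud. The fibroblast gate carried it at 74.6 CPM at E11.5, 63.5 CPM at E13.5, 89.7 CPM at E15.5 and 32.5 CPM at E18.5, 15.2-fold (8.46 to 25.5) over other cells at E13.5, 15.8-fold (12.3 to 20.2) at E15.5 and 11.4-fold (7.42 to 17.6) at E18.5. Col25a1, which in mice is needed for motor nerves to enter muscle, was at 17.9 CPM at E11.5, 9.28 CPM at E13.5, 8.88 CPM at E15.5 and 7.05 CPM at E18.5. At E11.5 the joint-list and limb mesenchyme gates had 35.6 and 25.2 CPM of it, and at E18.5 the chondrocyte gate had 22.1 CPM. Col13a1, a chain of the neuromuscular junction, was low throughout at 2.82 CPM at E11.5, 2.28 CPM at E13.5, 2.42 CPM at E15.5 and 1.97 CPM at E18.5; it was 3.41-fold (1.42 to 7.09) over other cells in the endothelial gate at E13.5 and 3.87-fold (1.71 to 8.59) in the muscle gate at E18.5, where 44.8% of its 29 UMIs lay.

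Of the 5 members outside these types, Col26a1 (chr5:136741759-136883209, minus strand), first described in mouse testis and ovary, was the one with the largest share of the limb bud's collagen. It was at 99.6 CPM at E11.5, 26.0 CPM at E13.5, 34.0 CPM at E15.5 and 49.5 CPM at E18.5. The level at E13.5 was 0.261-fold (0.242 to 0.281) that of E11.5, where 62.3% of its UMIs lay in the limb mesenchyme gate. Muscle-gate cells had 208 CPM at E13.5, 176 CPM at E15.5 and 145 CPM at E18.5, against 23.0, 25.4 and 29.4 CPM in other cells at these stages. That was 9.05-fold (7.4 to 11), 6.94-fold (6.04 to 7.95) and 4.93-fold (4.25 to 5.71) over other cells. By E18.5 50.8% of its UMIs lay in the muscle gate, in which 28 of 31 members were lower than in other cells (28.5% of genes) and 3 higher (4.29%): Col26a1, Col13a1 and Col6a6. Relative to the median gene, at -0.41, the counts were 3 higher and 24 lower (9.42% and 19.7% of genes). The share of muscle-gate cells with a Col26a1 UMI was 91.2%, 87.4% and 62.5% at E13.5, E15.5 and E18.5, but 38.2%, 36.9% and 36.6% once thinned to 3000 UMIs. In the endothelial gate, which had a median depth of 6103 UMIs against 8779 in muscle at E18.5, the share was 2.08%, or 0 of 43 cells once thinned, which by the same floor allows a share of cells with a UMI of up to 6.98%.

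Col7a1, the chain of the anchoring fibrils that fasten epidermis to dermis, was at 1.89 CPM at E11.5, 2.33 CPM at E13.5, 8.44 CPM at E15.5 and 33.1 CPM at E18.5. It was found on both sides of that junction: at E18.5 the fibroblast gate held 50.8% of its UMIs and the epithelial gate 38.1%. Fibroblast-gate levels were 4.87 CPM at E11.5, 23.8 CPM at E13.5, 108 CPM at E15.5 and 137 CPM at E18.5, and epithelial-gate levels 6.75 CPM at E11.5, 14.4 CPM at E13.5, 18.5 CPM at E15.5 and 108 CPM at E18.5. Col7a1 was 4.53-fold (2.03 to 12.5) in the fibroblast gate at E15.5 over E13.5, and 5.84-fold (3.99 to 8.78) in the epithelial gate at E18.5 over E15.5. Between E13.5 and E11.5 the epithelial ratio was 2.14-fold (1.23 to 3.75), on 33 against 25 UMIs. The ratios of the other gate in the 2 later pairs were 1.27 (fibroblast, E18.5 over E15.5) and 1.28 (epithelium, E15.5 over E13.5), neither past 2-fold; the difference between gates was not tested. Type VIII chains form short-chain networks in vessel walls and the eye. Col8a1 was at 4.71 CPM at E11.5, 8.48 CPM at E13.5, 7.64 CPM at E15.5 and 17.1 CPM at E18.5 and Col8a2 at 1.74 CPM at E11.5, 24.0 CPM at E13.5, 17.7 CPM at E15.5 and 14.9 CPM at E18.5. At E18.5 9 cells held 50% of the 253 Col8a1 UMIs and 1 cell held 66 of them, so its level in the pericyte and smooth muscle gate, 51.9 CPM, rests on few cells. Col8a2 was a cartilage-enriched gene at E18.5: it was at 61.5 against 5.76 CPM in cartilage and other cells at E18.5, 10.7-fold (8.00 to 14.4), and was in neither list at E13.5 or E15.5. Col28a1, reported in peripheral nerve, had 2 UMIs (E11.5), 6 (E13.5), 9 (E15.5) and 3 (E18.5).

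Of the adjacent stages, E15.5 and E13.5 had the fewest members called: 6 of 32 members were higher and 0 lower at E15.5, where 3.85% and 0.969% of 15268 genes were. The 6 were Col7a1, Col20a1, Col14a1, Col22a1, Col24a1 and Col23a1, of which Col7a1 had the highest ratio, 3.62-fold (2.81 to 4.70), and all were low, from 1.11 to 11.1 CPM at E15.5. Relative to the median gene Col1a1 joined them, at 1.97-fold in CPM, for 7 higher and 0 lower (4.14% and 0.891% of genes). Between E18.5 and E15.5 the cartilage chains and the fibrous ones went opposite ways. Of 32 members 15 were higher and 8 lower at E18.5 (11.7% and 8.27% of 14939 genes); 15 and 7 relative to the median gene (13.6% and 6.33% of genes), which lay at -0.14 on the log2 scale, with the median member at 0.51. Those lower were Col27a1, Col11a2, Col11a1, Col9a3, Col19a1, Col9a2, Col9a1 and Col2a1; those higher were types I, III, V, VI, VII and XVII chains with Col8a1, Col12a1 and Col14a1. Cartilage-gate cells were 15.3% of the E18.5 library against 66.1% at E15.5, fibroblast-gate cells 14.3% against 6.35%, so the comparison was repeated inside gates. Over the whole span, 26 of 32 members were higher and 4 lower at E18.5 than at E11.5 (16.5% and 35.1% of 14887 genes), or 26 and 1 relative to the median gene at -0.63 (24.4% and 13.9% of genes); only Col23a1, 0.290-fold (0.231 to 0.360), was lower both ways.

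Inside the chondrocyte gate no chain of type II, IX or XI was called lower, and each had a ratio above 1, from 1.18 for Col11a2 to 2.03 for Col2a1. Of 29 members 13 were higher at E18.5 than at E15.5 and 1 lower, where 4.67% and 4.31% of genes were; the median member lay at 0.97 on the log2 scale and the median gene at -0.09. Col2a1 was at 19808 against 9746 CPM, 2.03-fold (2.01 to 2.06), and Col9a1 at 5549 against 3127 CPM, 1.77-fold. Col27a1 was at 0.658-fold. The widest ratios were of chains best known from fibrous tissue, such as Col14a1 6.35-fold (4.77 to 8.45), Col6a1 5.31-fold (4.82 to 5.84), Col6a2 4.73-fold, Col12a1 4.40-fold and Col1a1 3.82-fold (3.59 to 4.06), at 775 against 203 CPM. In the cells with 7 or 8 chondrocyte markers 12 of 28 were higher and 1 lower (4.92% and 3.54% of genes), with Col6a1 at 4.20-fold and Col1a1 at 395 against 122 CPM, 3.24-fold (2.95 to 3.56); Col2a1, at 1.99-fold, fell just short. The myeloid gate, not known as a source of either gene, had 95.2 CPM of Col1a1 and 21.6 CPM of Col6a1 at E18.5; the part of free RNA and of doublets in the chondrocyte values was not tested. Col19a1 was the member called lower, with 0 against 41 UMIs; with the floor of 3 UMIs in place of 0 its ratio was 0.503, short of 2-fold. Between E15.5 and E13.5 few members differed in this gate: 2 of 30 were higher at E15.5, Col22a1 and Col24a1, and 0 lower (1.77% and 1.62% of genes).

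The fibroblast gate had 10 of 26 members higher and 7 lower at E18.5 than at E15.5 (6.74% and 8.14% of genes), and 13 and 6 relative to the median gene at -0.21 (8.97% and 4.7% of genes). Col3a1 was at 12552 against 3036 CPM, 4.13-fold (4.00 to 4.28), Col1a2 was 3.4-fold and Col1a1 3.29-fold higher. Among the lower were Col23a1, Col8a1 and the cartilage chains Col2a1, Col9a1, Col9a2, Col9a3 and Col11a2; Col2a1 was at 91.5 against 267 CPM here and at 82.3 against 233 CPM in the endothelial gate. Earlier, 14 of 18 members were higher at E13.5 than at E11.5 and 0 lower (9.32% and 18.6% of genes; 15 and 0 relative to the median gene at -0.50, 14.9% and 5.71% of genes), among them type VI, with Col6a1 at 14.4-fold (8.25 to 26.7) and Col6a2 at 12.1-fold (7.00 to 22.2), in 30 against 56 cells. The cells of this gate at E11.5 are named by their list alone, so these ratios need not be changes within 1 cell type. Between E15.5 and E13.5 the counts were 6 higher and 2 lower of 23 (2.75% and 3.46%). In the hypertrophic gate 9 of 26 were higher and 0 lower at E15.5 than at E13.5 (5.35% and 0.952% of genes), and types I and III were among them: Col1a1 at 145 against 54.0 CPM, 2.68-fold (2.38 to 3.02), and Col3a1 at 2.64-fold. Muscle-gate cells had 5 of 22 higher and 6 lower at E18.5 than at E15.5 (5.18% and 6.3% of genes), or 8 and 6 relative to the median gene at -0.15 (6.87% and 4.03% of genes), with Col6a1 highest in ratio at 3.70-fold (2.89 to 4.79) and all 6 lower ones cartilage chains. Epithelial-gate cells had 5 and 4 of 21 (9.13% and 8.55%), or 9 and 4 relative to the median gene at -0.14 (11.2% and 6.12% of genes).

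**Figure D3:**
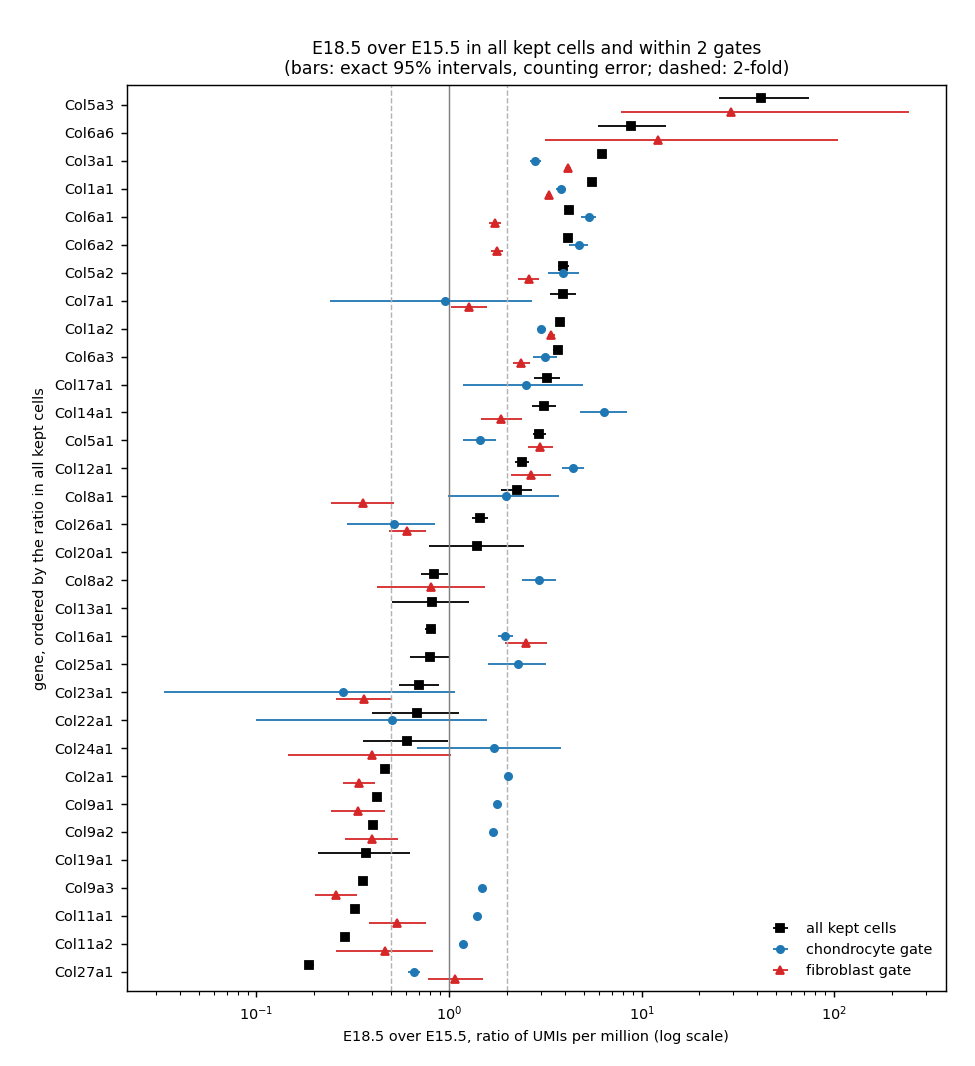
Ratio of CPM at E18.5 over E15.5 (log axis) for members with at least 20 UMIs in the pair, in all kept cells, the chondrocyte gate and the fibroblast gate, ordered by ratio, with exact 95% counting intervals and dashed lines at 2-fold either way. Col2a1 lies at 0.463 in all cells (0.511 relative to the median gene), 2.03 in the chondrocyte gate and 0.343 in the fibroblast gate.

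The joint-list gate was rich in collagens at E11.5, when 15 of 27 members were higher and 2 lower (4.86% and 8.72% of genes). Col8a1 was at 26.8 against 1.53 CPM in that gate and other cells, 17.5-fold (11.8 to 26.6), and Col2a1 at 405 against 95.3 CPM, 4.25-fold (3.97 to 4.55). At E13.5 the cartilage chains were on the other side: 13 members were higher and 9 lower (10.8% and 4.24% of genes; 7 and 9 relative to the median gene, 8.13% and 5.41% of genes), with Col2a1 at 629 against 5296 CPM and Col3a1 at 579.8 against 189 CPM. Only 42 cells were in it at E15.5, with 4 higher and 8 lower members (8.35% and 2.97% of genes). Col12a1 was 3.21-fold (2.16 to 4.62) over other cells, on 30 UMIs in the gate. Col22a1 was 5.38-fold (1.08 to 16.5), but on 3 UMIs in the gate, no more than the floor of 3 counts. Endothelial-gate cells had 0 members higher and 25 of 27 lower than in other cells at E11.5 (9.69% and 21.4% of genes), the same relative to the median gene at -0.29 (13.1% and 16.7% of genes).

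Chains that share a trimer can be compared as UMI ratios, and since 2 genes may be captured unequally, only the change of such a ratio between stages and gates is read. Type I collagen contains more of the Col1a1 chain than of the Col1a2 chain. Over all cells the Col1a1 UMIs per Col1a2 UMI were 0.320 (0.299 to 0.342, E11.5), 0.881 (0.851 to 0.911, E13.5), 1.05 (1.02 to 1.07, E15.5) and 1.54 (1.51 to 1.57, E18.5). In the limb mesenchyme gate the ratio was 0.287 (E11.5), 1.2 (E13.5) and 1.77 (E15.5), in the fibroblast gate 0.459 (E11.5), 1.39 (E13.5), 1.81 (E15.5) and 1.75 (E18.5), and in the chondrocyte gate 0.745 (E13.5), 0.625 (E15.5) and 0.791 (E18.5). So from E13.5 on the ratio was larger in the fibroblast gate than in the chondrocyte gate at each stage. Muscle-gate cells had the lowest value of any gate at each stage from E13.5 on, 0.0758 (0.0238 to 0.186, E13.5), 0.232 (0.168 to 0.315, E15.5) and 0.753 (0.642 to 0.883, E18.5). The muscle interval at E18.5 takes in the chondrocyte-gate value of 0.791, so their order at that stage lies within counting error. Col3a1 UMIs per Col1a1 UMI were 3.67 (E11.5), 1.08 (E13.5), 0.983 (E15.5) and 1.10 (E18.5) over all cells. At E18.5 that ratio was 2.65 (2.50 to 2.82) in the pericyte and smooth muscle gate, 2.77 (2.41 to 3.19) in the muscle gate and 1.03 (1.01 to 1.05) in the fibroblast gate. These intervals, which cover counting error in 1 library only, do not overlap between the fibroblast gate and either of the other 2. The difference between gates was not tested.

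For type VI, Col6a2 UMIs per Col6a1 UMI were 1.17 (E11.5), 0.762 (E13.5), 0.798 (E15.5) and 0.787 (E18.5), close to one another from E13.5 on. Col6a3 varied more between gates: its ratio to Col6a1 over all cells was 0.511 (E11.5), 0.857 (E13.5), 0.744 (E15.5) and 0.649 (E18.5), but by gate it ran from 0.0916 (0.0639 to 0.128) in muscle at E18.5 to 2.43 (2.14 to 2.76) in the hypertrophic gate at E15.5. At E18.5 it was 1.17 (1.08 to 1.26) in the pericyte and smooth muscle gate, 0.612 (0.576 to 0.650) in the fibroblast gate and 0.366 (0.318 to 0.421) in the chondrocyte gate. Type IX chains changed their proportion between E13.5 and E11.5: Col9a1 UMIs per Col9a3 UMI were 2.50 (2.37 to 2.63, E11.5), 0.565 (0.559 to 0.571, E13.5), 0.584 (0.578 to 0.590, E15.5) and 0.685 (0.670 to 0.70, E18.5). At E11.5 the ratio was 3.32 (3.07 to 3.59) in the limb mesenchyme gate and 1.53 (1.40 to 1.67) in the joint-list gate. Col9a1 per Col2a1 UMI at E11.5 was 1.95 (1.83 to 2.09) in the limb mesenchyme gate, 0.906 (0.838 to 0.979) in the joint-list gate and 0.150 (0.103 to 0.211) in the epithelial gate, so of these gates the epithelial one had the smallest ratio. From E13.5 on the chondrocyte gate had 0.364 (E13.5), 0.321 (E15.5) and 0.280 (E18.5). In type XI, Col11a2 UMIs per Col11a1 UMI were 0.101 (E11.5), 0.384 (E13.5), 0.403 (E15.5) and 0.354 (E18.5). Col5a1 per Col5a2 UMI was 0.355 (E11.5), 1.23 (E13.5), 1.01 (E15.5) and 0.760 (E18.5) over all cells, and 0.110 (0.0485 to 0.219) in the endothelial gate at E18.5 against 0.757 (0.696 to 0.824) in the fibroblast gate.

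**Figure D4:**
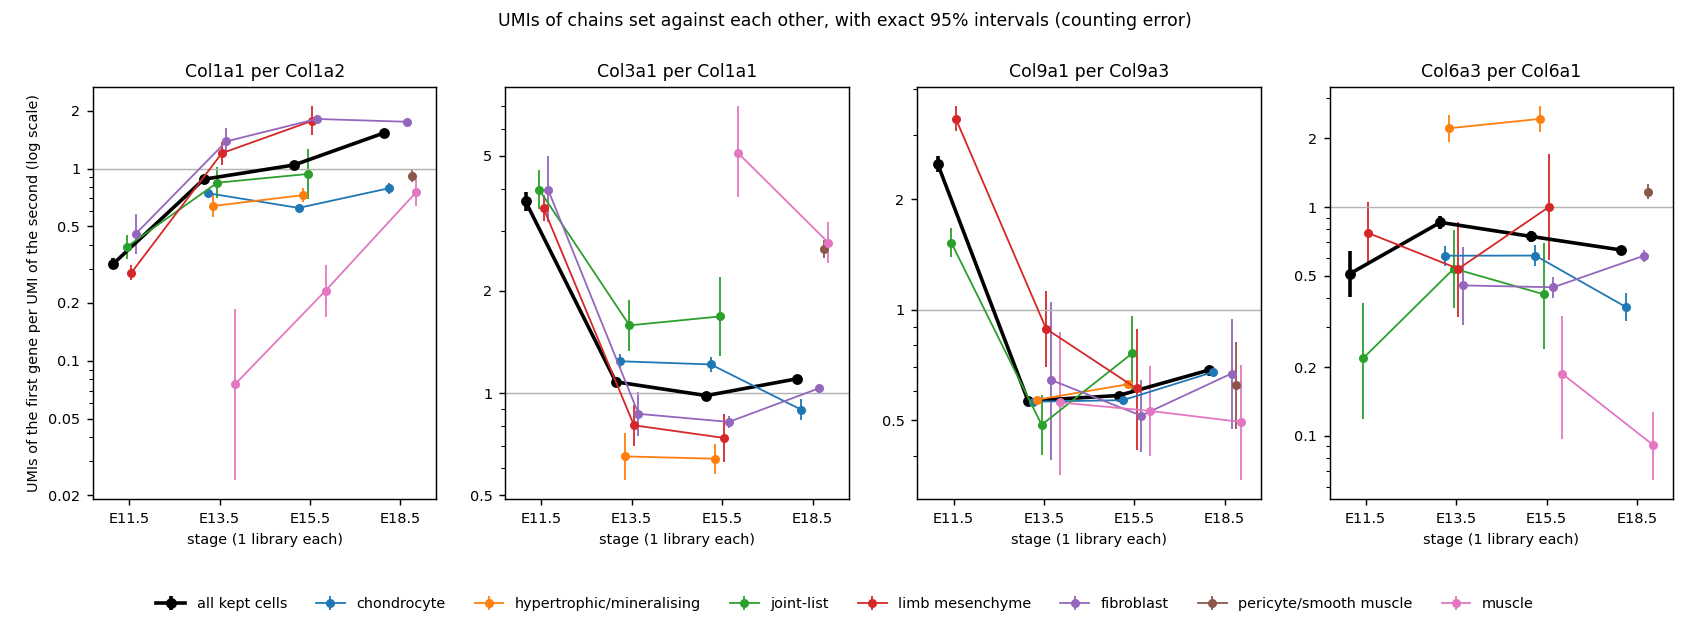
UMIs of 1 chain per UMI of its partner (log axis) by stage for 4 pairs, over all kept cells (black) and in gates (colours), with exact 95% counting intervals; sums with under 50 UMIs in the pair are not drawn. Col1a1 per Col1a2 climbs with stage over all cells (1.54 at E18.5 against 0.320 at E11.5), and Col6a3 per Col6a1 runs from 0.0916 in muscle at E18.5 to 2.43 in the hypertrophic gate at E15.5.

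Across the 29 sums of a stage and a gate with at least 30 cells, the 25 members with at least 500 UMIs were set side by side on the log2(CPM + 10) scale. Pearson's r describes likeness only, since the points share libraries, depth and free RNA. For Col2a1 the most alike were Col9a3 (0.98), Col9a2 (0.98) and Col11a1 (0.98). For Col1a1 they were Col1a2 (0.93), Col3a1 (0.93) and Col6a2 (0.92), and for Col6a1 Col6a2 (0.98), Col5a1 (0.92) and Col1a1 (0.91). Col16a1 lay nearest Col27a1 (0.82), and Col12a1 nearest Col1a2 (0.85). Col17a1 had no close partner, its nearest being Col7a1 (0.48), and Col26a1, Col25a1 and Col23a1 stood nearly as far off, with highest values of 0.56, 0.57 and 0.57.

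**Figure D5:**
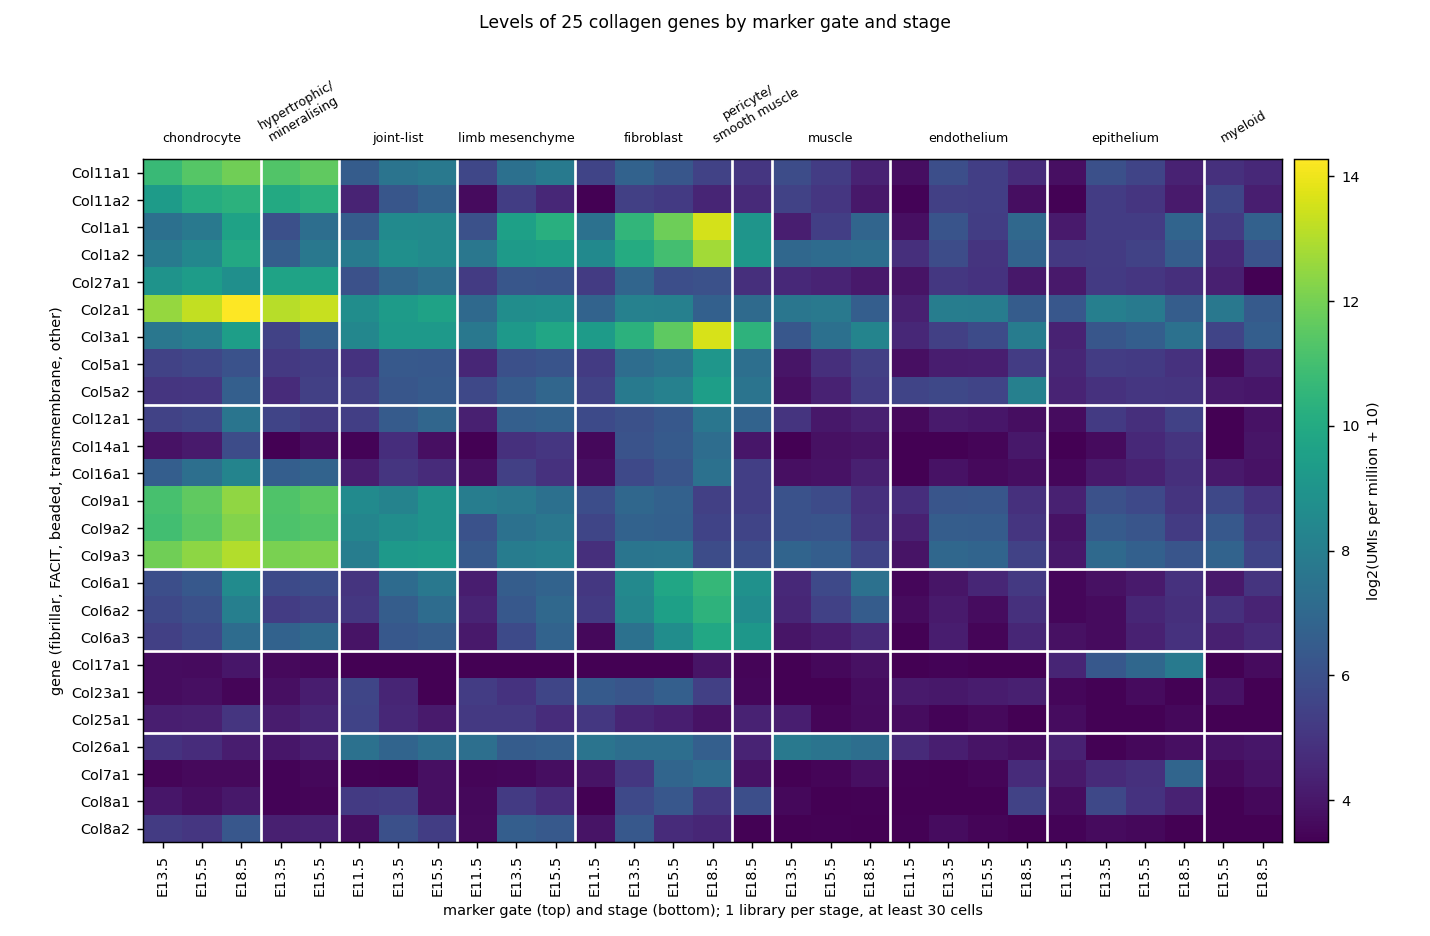
Heat map of log2(CPM + 10) for the 25 members with at least 500 UMIs (rows) in the 29 sums of a gate and a stage (columns, at least 30 cells each). Types II, IX and XI are brightest in the cartilage gates, types I and III in the fibroblast gate at E15.5 and E18.5, type VI in the fibroblast gate at E18.5, and Col17a1 in the epithelial gate.

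Collagens depend on enzymes and chaperones that modify, fold, trim and crosslink them, and a list of 30 such genes was read the same way. At E13.5 over E11.5, 23 of the 30 were higher and 1 lower, where 12.8% and 26.1% of all genes were, with a median log2 ratio of 1.56. Relative to the median gene it was 27 and 1 (19.6% and 9.56% of genes). Plod2, which hydroxylates lysines for crosslinks, was 6.14-fold (5.76 to 6.54), 245 against 40.0 CPM; Serpinh1, the collagen chaperone, was 2.02-fold (2.0 to 2.04), 2959 against 1464 CPM. Bmp1, which removes the C-propeptide of fibrillar collagens, was the gene called lower, 0.304-fold (0.279 to 0.329), 23.1 against 76.1 CPM. At E15.5 over E13.5 0 genes of the list were higher and 0 lower (3.85% and 0.969% of genes), or 1 and 0 relative to the median gene (4.14% and 0.891%). At E18.5 over E15.5 2 were higher and 8 lower (11.7% and 8.27%), or 2 and 6 relative to the median gene (13.6% and 6.33%). The 2 higher were Adamts2, which trims the N-propeptide of types I, II and III, at 5.15-fold (4.25 to 6.28), 25.5 against 4.95 CPM, and the crosslinking oxidase Loxl1 at 2.14-fold. The lowest ratios were those of the N-propeptidase Adamts3 (0.223-fold) and the prolyl hydroxylase chain P4ha3 (0.241-fold), and Plod2 was also lower (0.306-fold). In the 2 cartilage gates together 22, 21 and 19 of the 30 were higher than in other cells at E13.5, E15.5 and E18.5, where 6.88%, 9.76% and 12.6% of genes were, and 3, 1 and 2 lower (17.6%, 16.8% and 17.9% of genes). The fibroblast gate at E18.5 had 10 higher and 5 lower (7.45% and 12.9% of genes), led by the crosslinking oxidase Lox at 10.0-fold (8.28 to 12.2), 145 against 14.4 CPM, and Adamts2 at 8.55-fold (6.95 to 10.5), 113 against 13.2 CPM, while Plod2 was at 0.335-fold and Pcolce2, an enhancer of C-propeptide removal, at 0.0167-fold. Loxl4 led in the hypertrophic gate, at 25.9-fold (15.7 to 45.1), 16.6 against 0.642 CPM at E13.5 and 29.5-fold at E15.5. In that gate Lox was 14.9-fold (8.81 to 27.0), 31.4 against 2.11 CPM at E15.5 over E13.5, the single gene of the list called there (5.35% of genes were higher and 0.952% lower), in the pair in which Col1a1 was also higher.

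Of 10 collagen receptor genes 9 could be compared between E13.5 and E11.5; 1 was higher and 0 lower (12.8% and 26.1% of genes), or 3 and 0 relative to the median gene (19.6% and 9.56%). The 1 called higher in CPM was Itga10, the integrin chain of chondrocytes that binds type II, at 15.7-fold (10.4 to 25.1), 13.4 against 0.852 CPM. Between E18.5 and E15.5 3 of 8 were higher and 0 lower (11.7% and 8.27%): Itga1 at 3.10-fold (2.60 to 3.69), 22.5 against 7.27 CPM, Itgb1 at 2.03-fold (1.94 to 2.12), 268 against 132 CPM and the leukocyte receptor Lair1 at 2.22-fold (1.15 to 4.28), 1.49 against 0.673 CPM. In the chondrocyte gate Itga10 was 2.43-fold (1.91 to 3.08), 47.6 against 19.6 CPM at E18.5 over E15.5, the single receptor called there (4.67% of genes were higher and 4.31% lower), beside Col2a1 at 2.03-fold.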

How the data were processed

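UMI counts per gene and barcode were used as deposited by the authors, with 1 count matrix per stage; Cell Ranger, the mm10 build and Seurat 2.3.4 are named per the submitters' processing notes, with no Cell Ranger version or barcode rule stated. From these counts, cells were kept that had 200 genes or more and no more than 10% mitochondrial UMIs. No doublet caller was run, so doublets are treated as still present; cells in which 2 lineage lists tied stayed ungated. Gates needed 3 of 8 markers, and a gate was compared in a library only with at least 30 cells; smaller gates appear only as where a gene's UMIs lay. UMIs were summed per library or gate, divided by the total without globin genes and multiplied by 1000000. Ratios carry exact 95% conditional binomial intervals, levels exact Poisson intervals and shares exact Clopper-Pearson intervals; with 1 library per stage no test was made, and all of them cover counting error only. A floor of 3 counts stands for 0. Shares of cells were repeated after thinning to 3000 UMIs, and likeness used log2(CPM + 10).

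Every member was accounted for and those with at least 20 UMIs were described; other genes were named only from the lists of collagen maturation and receptor genes. Genes of the P3h family carry older symbols in the files and were matched through them. The members, gene lists and gates were chosen with earlier results of these data known. On simulated counts with 200 genes changed 4-fold, 97.0% of the changed genes were called for E13.5 over E11.5 (15172 genes), 99.0% for E15.5 over E13.5 (15268 genes), 98.5% for E18.5 over E15.5 (14939 genes) and 98.0% for E18.5 over E11.5 (14887 genes). Those counts carried Poisson counting noise only, and the planted change lay well past the 2-fold limit. They held no variation between cells, embryos or preparations, so they cannot show how the rule fares with 1 library per stage. Alternatives covered the scaling, the cell filter, the weighting of cells, the UMI minimum, the gate rule, Leiden clusters made without collagen genes, and thinning. Gene positions and strands are from GENCODE vM21 on GRCm38, and promoter sequences from RefSeq (GRCm38.p6). Python 3.11.15, numpy 2.4.6, scipy 1.17.1, pandas 2.3.3, scanpy 1.11.5 and matplotlib 3.10.9 were used.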

Additional observations from a re-analysis of the deposited data

Results flagged for a closer look

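For 3 collagens the values in different gates went opposite ways under the same pair of stages, each past the size rule in both; none of these differences between gates was tested. The lower side of each stands in gates not known as a main source of that chain, or, for Col2a1, at levels near those of the endothelial gate (82.3 against 233 CPM at E18.5 and E15.5), and the part of free RNA in it was not tested. Col2a1 was 2.03-fold (2.01 to 2.06) in the chondrocyte gate at E18.5 over E15.5, at 19808 against 9746 CPM, and 0.343-fold (0.283 to 0.414) in the fibroblast gate, at 91.5 against 267 CPM. It was also lower at E18.5 in the muscle (0.414-fold), endothelial (0.354-fold), epithelial (0.397-fold) and myeloid (0.380-fold) gates, while cartilage-gate cells were 15.3% of the library at E18.5 against 66.1% at E15.5. Col1a1 was 3.45-fold (1.39 to 11.1) in the muscle gate at E15.5 over E13.5, with 52 against 5 UMIs (30.4 against 8.82 CPM). It was 0.480-fold (0.301 to 0.748) in the endothelial gate, at 29.4 against 61.3 CPM. Both gates thus lay at nearly the same level at E15.5, and the part of free RNA in the muscle value was not tested either. Col1a1 was also called higher in the hypertrophic and fibroblast gates in this pair. Col1a2 was 2.35-fold (2.13 to 2.59) in the hypertrophic gate at E15.5 over E13.5, at 199 against 84.6 CPM, and 0.451-fold (0.261 to 0.755) in the endothelial gate, at 21.6 against 47.8 CPM. The endothelial gate held 102 cells at E15.5 and 105 at E13.5, and its median gene lay at -0.08 on the log2 scale.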

How the results depend on the processing

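With 4 members lower at E18.5 than at E11.5, the count became 1 relative to the median gene and 2 with the collagens left out of the total. With each cell weighted equally, 3 members instead of 6 were higher at E15.5 than at E13.5, and in the 2 cartilage gates together 1 instead of 0 was lower at E15.5 than at E13.5. In those gates 2 instead of 1 were lower at E18.5 than at E15.5 with each cell weighted equally, with Leiden clusters, and with at least 1000 genes and at most 5% mitochondrial UMIs per cell. The members higher there at E15.5 than at E13.5 were 2 in the gates, 5 in Leiden clusters and 6 when the chondrocyte gate asked for 7 of 8 markers. That last setting and the joining of the 2 cartilage gates were chosen after seeing the data. Under it Col8a1 reversed in cartilage at E18.5 over E15.5, with a ratio of 0.834 (0.164 to 2.66); the cause was not tested in any of these. The other counts of members called in the whole library, the 2 cartilage gates together and the fibroblast gate from E13.5 on stayed within 1.5 times under every alternative that gave a value. In other gates the scaling was the alternative read: relative to the median gene the members higher became 7 instead of 13 in the joint-list gate at E13.5, 3 instead of 1 in the hypertrophic gate at E15.5, and, at E18.5 over E15.5, 9 instead of 5 in the epithelial gate and 8 instead of 5 in the muscle gate. Of 17 calls of lower that rest on 0 UMIs, 10 fell short of 2-fold with the floor of 3 UMIs in place of 0. The members lower then became 0 instead of 1 in the chondrocyte gate at E18.5 over E15.5, 0 instead of 1 in its cells with 7 or 8 markers, and 25 instead of 28 in the muscle gate at E18.5; 5 other counts fell by 1. That setting was chosen after seeing the data. Over single ratios and shares, 3552 values stayed within their intervals, 625 moved and 1 reversed. That total flatters the ratios, because lowering or dropping the UMI minimum cannot move a ratio, and each of those settings added 418 values that stayed. With the chondrocyte gate at 7 of 8 markers 85 ratios moved and 64 stayed, and in Leiden clusters 105 and 133. With each cell weighted equally it was 131 and 287, and relative to the median gene 126 and 292. Of the thinned shares 19 moved and 8 stayed. Leiden clusters left 22 fibroblast cells at E13.5, too few for a value. No paired analysis was possible because each stage is 1 library. Members with few UMIs, Col6a4, Col6a5, Col20a1 and Col28a1 among them, are limited by depth, and E18.5, the shallowest library, limits them most.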
